A study of Mus musculus with 18 samples.

Results

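Astrocytes of 2 traced spinal cord cultures, a tdTomato line and an EYFP line, were compared over all autosomal genes. The table held 27997 genes, of which 26819 lay on an autosome in the GENCODE M21 annotation of GRCm38. The genes compared were the 14055 autosomal genes whose log2 value reached 3.32 (10 on the linear scale) in 3 or more of the 6 astrocyte libraries. The other 12764 autosomal genes lay below that level. In 96 of the 14055 genes all libraries of 1 line were below it, so these passed only through the line in which they were higher. The question was which genes and functions set apart the astrocytes of 2 cultures grown from the same tissue.

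Both lines were adherent neural stem cell (NSC) cultures from spinal cord cells with a history of DNGR-1 expression. DNGR-1, the product of Clec9a, is a receptor of dendritic cells, and Cre under the control of Clec9a switched on a reporter at the Rosa26 locus. The genotype was DNGR-1 +/- Tom+/- in the first line and DNGR-1 +/- EYFP+/- in the second, so both carried 1 Cre allele and they differed in the reporter. Astrocytes were obtained by replacing the growth factor medium (bFGF, EGF, heparin and laminin) with medium containing BMP4 at 20 ng/ml, which was renewed after 3 days, and were collected at 6 days. NSCs of the same lines, kept in growth factor medium for 4 days, are used below only to show where astrocytes differ. Astrocytes from hippocampus, of 3 further cultures, are cited only for the levels of a few genes. Per the methods of the study they came from Glast Cre mice with a floxed Huwe1 allele and the EYFP reporter, so they differ from both lines in tissue, Cre driver and genotype. Each group had 3 replicates, which were cultures of the same line at different passages. Each reporter was thus represented by a single line, so the reporter, the animals of origin and the history of the culture cannot be told apart, and p-values measure the spread between cultures of a line. Per the methods of the study, mice were young adults unless otherwise specified. The sex of the animals and the spinal level sampled were not given in the sources used here.

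Astrocytes are glial cells that clear glutamate and potassium, move water at blood vessels, supply neurons with lipids and shape synapses and matrix. BMP4 acts through Smad proteins and drives NSCs out of the cell cycle towards a Gfap-expressing astrocyte state. Cells of the spinal cord keep a record of their position along the body axis in the Hox genes, whose order on the chromosome follows the order of their expression from head to tail, and a record of their dorsoventral position in other homeodomain and zinc finger factors.

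The values were log2 values in the form of a regularized log, which draws the values of weak genes together across libraries. A difference of 1 stands for a 2-fold difference, differences of weakly expressed genes are understated, and the number of reads behind a value is unknown. The median value of the genes compared was 9.004 to 9.037 in all 6 libraries. The median absolute difference between 2 libraries was 0.077 to 0.114 within the tdTomato line, 0.094 to 0.121 within the EYFP line and 0.110 to 0.159 between lines. Transcripts of the mitochondrial genome took 4.17%, 6.96% and 6.87% of the summed linear values in the tdTomato libraries and 3.73%, 6.34% and 5.31% in the EYFP libraries. The lines overlapped in this share, and its part in the results was not tested.

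The identity of the cells was checked with marker lists. Gfap, the astrocyte intermediate filament, lay at 15.22, 14.69 and 15.53 in the tdTomato libraries and at 15.85, 15.25 and 15.92 in the EYFP libraries. Of 32 astrocyte genes in the table, 2 (Gjb6 and Slc7a10) were below the level in all 6 libraries. Markers of other cells were split. Of 20 genes of the oligodendrocyte lineage 9 were below the level in all 6, among them Sox10, Mbp and Mog, while Olig1 was at 14.17 to 14.59, Cnp at 12.44 to 13.25 and Cspg4 at 10.14 to 10.72. Of 22 neuronal genes 10 were below it, among them Snap25 and Stmn2, while Map2 was at 14.08 to 14.32 and Rbfox3 at 6.64 to 7.44. Ptprc, Aif1 and Csf1r of microglia and Pecam1 and Cdh5 of endothelium were below it as well. The lists were also summed on the linear scale and expressed as log2. The astrocyte list was at 18.68 to 18.85 in the tdTomato and at 18.88 to 19.15 in the EYFP libraries. The ependymal list was at 13.86 to 14.01 and 14.04 to 14.22, both lists being lower in tdTomato without overlap. Of 32 ependymal genes 10 were below the level in all 6, among them Ccdc153 and Dnah12. The ependymal sum rests mainly on Rfx4 (12.49 to 13.06), Mt3 (11.4 to 11.75), Rfx3 (11.24 to 11.64) and Foxj1 (10.97 to 11.32). Rfx4 was lower by 0.33, a call lost in 6 of the 16 alternatives. The stem and progenitor list was at 17.63 to 17.67 and 17.60 to 17.67. The oligodendrocyte list was at 15.11 to 15.24 in the tdTomato and at 15.11 to 15.20 in the EYFP libraries, and the microglial list was at 10.21 to 10.32 in the tdTomato and at 10.24 to 10.39 in the EYFP libraries. The list of endothelium, pericytes and fibroblasts was at 10.41 to 10.52 and 10.32 to 10.42, and the neuronal list at 14.56 to 14.75 and 14.67 to 14.79. The Schwann and neural crest list was at 11.00 to 11.13 in the tdTomato and at 10.60 to 10.69 in the EYFP libraries, without overlap. Of its 12 genes 4 were below the level in all 6, Foxd3, Sox10 and Erbb3 among them, while Pmp22 was at 9.19 to 9.92, Egr2 at 8.34 to 9.01, Prx at 7.23 to 7.58 and Ngfr at 5.08 to 6.16. Of its 8 members tested, 4 were higher in tdTomato (Cdh19, Pou3f1, Pmp22 and Tfap2a) and 1, Mal, was lower (-1.43, adjusted p = 0.012). The call of Mal was lost without EYFP replicate 1 or 3 and that of Tfap2a without any 1 of 4 libraries. The part of other cells in the results below was not tested.

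Between the lines, 1540 of the 14055 genes (11.0%) passed an adjusted p of 0.05 (limma with a trend, Benjamini-Hochberg over all genes tested). Of these, 768 (5.46%) were higher in tdTomato astrocytes and 772 (5.49%) were lower. Most differences were small. The median difference over all genes was -0.003, the median absolute difference 0.099 over all genes and 0.517 over those called, and 97.7% of the genes differed by less than 1. A difference of at least 1 was called in 279 genes (1.99%), of which 184 were higher and 95 lower in tdTomato. The groups did not overlap in 1538 of the 1540 genes called and in 28.6% of all genes compared. Of the 96 genes that passed through 1 line alone, 62 were called. The Hoxc list below held 4 of these, the list of dorsoventral factors 3 and each other list at most 2. The count fell to 931 without tdTomato replicate 2 and to 963 without EYFP replicate 3, of which 910 and 929 were among the 1540. With a block on the replicate number it rose to 2887. Gene lists are read below against the shares of 5.46% and 5.49%.

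**Figure D1:**
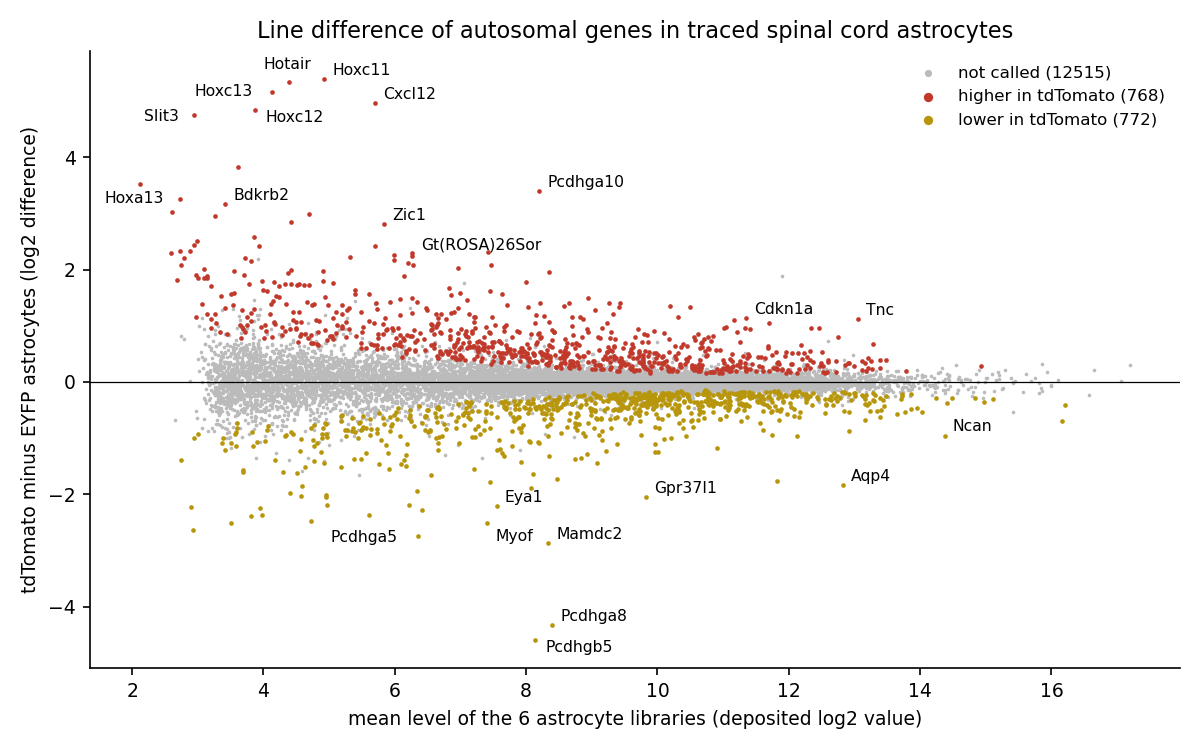
Difference between tdTomato and EYFP astrocytes (vertical axis, log2) against the mean level of the 6 libraries (horizontal axis, deposited log2 value) for 14055 autosomal genes, 1 point per gene. The posterior genes Hoxc11, Hotair, Hoxc13 and Hoxc12 and the secreted factors Cxcl12 and Slit3 lie at the top between 4.75 and 5.39, and the protocadherins Pcdhgb5 and Pcdhga8 at the bottom at -4.59 and -4.33.

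The posterior end of the Hoxc cluster gave the largest fitted differences. Hoxc genes encode homeodomain factors that set position along the body axis, and the members with the highest numbers mark the lumbosacral cord and tail. Hoxc11, on chromosome 15 from 102954427 to 102957708, was at 7.81, 7.57 and 7.47 in the tdTomato libraries and at 1.77, 2.43 and 2.48 in the EYFP libraries. The difference was 5.39. Hoxc12 was at 6.47, 6.30 and 6.09 in tdTomato and at 1.37 to 1.50 in EYFP astrocytes, a difference of 4.84. Hoxc13 was at 7.07, 6.40 and 6.63 against 1.47 to 1.60, a difference of 5.16. Hotair, a long noncoding RNA read from the opposite strand between Hoxc11 and Hoxc12, was at 7.02, 7.12 and 7.03 against 1.44, 2.15 and 1.57, a difference of 5.34. All 4 were below the level in every EYFP library and above it in every tdTomato library, so they passed the level only through the line in which they were higher. The fitted size of these differences depends on how the weak side was shrunk, and no test is given for them. Hippocampal astrocytes of the same series had means of 1.51 to 1.92 for these 4 genes.

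The step lay between Hoxc10 and Hoxc11. Hoxc10 was at 9.87 to 9.98 in tdTomato and at 9.28 to 9.34 in EYFP astrocytes (difference 0.62, SE 0.05, adjusted p = 0.00017). Hoxc9 was at 9.04 to 9.10 and 9.02 to 9.11, with groups that overlapped and a difference of 0.00. Hoxc8 overlapped as well (difference 0.13, adjusted p = 0.47). At the anterior end, Hoxc4, Hoxc5 and Hoxc6 were higher in tdTomato by 0.70, 0.87 and 0.56, the call of Hoxc6 being lost without any 1 of 3 libraries. In all, 8 of the 10 genes of the cluster were higher and none lower (80.0%), with 7 or 8 higher when any 1 library was left out. Of the 6 genes other than Hoxc11, Hotair, Hoxc12 and Hoxc13, 4 were higher.

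The Hoxa cluster showed the same kind of step at a lower level. Hoxa11 was at 4.60, 3.88 and 3.90 in tdTomato and at 0.92, 1.36 and 1.01 in EYFP astrocytes, a difference of 3.03. Hoxa13 was at 4.51, 4.34 and 4.21 against 1.06, 1.45 and 0.77, a difference of 3.26. Both were below the level in all EYFP libraries, and no test is given for them either. The more anterior genes went the other way by small amounts: Hoxa7 was lower in tdTomato by 0.32 (adjusted p = 0.0074), and Hoxa2 and Hoxa5 by 0.32 and 0.23. The call of Hoxa2 was lost in 7 of the 16 alternatives and that of Hoxa5 in 10, and 1 or 2 genes of the cluster were lower when any 1 library was left out. Of 13 genes and antisense transcripts tested in the cluster, 2 were higher and 3 lower, and the 2 higher ones were Hoxa11 and Hoxa13. Of the other 11 none was higher.

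In the Hoxb cluster 5 of 9 were higher and none lower. Hoxb9, the most posterior member tested, was at 10.86, 10.96 and 10.76 in tdTomato and at 9.45, 9.70 and 9.40 in EYFP astrocytes, a difference of 1.34 (SE 0.09, adjusted p = 3.5e-05). Hoxb6 was higher by 1.15, Hoxb5 by 0.93, Hoxb8 by 0.66 and Hoxb3 by 0.52. Hoxb4 was not called (-0.14). In the Hoxd cluster none of the 5 genes tested was called by limma, none at an unadjusted p under 0.05, and the median difference was 0.112. Hoxc8, Hoxc9, Hoxd8 and Hoxd9 thus lay within 0.13 of each other in the 2 lines.

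**Figure D2:**
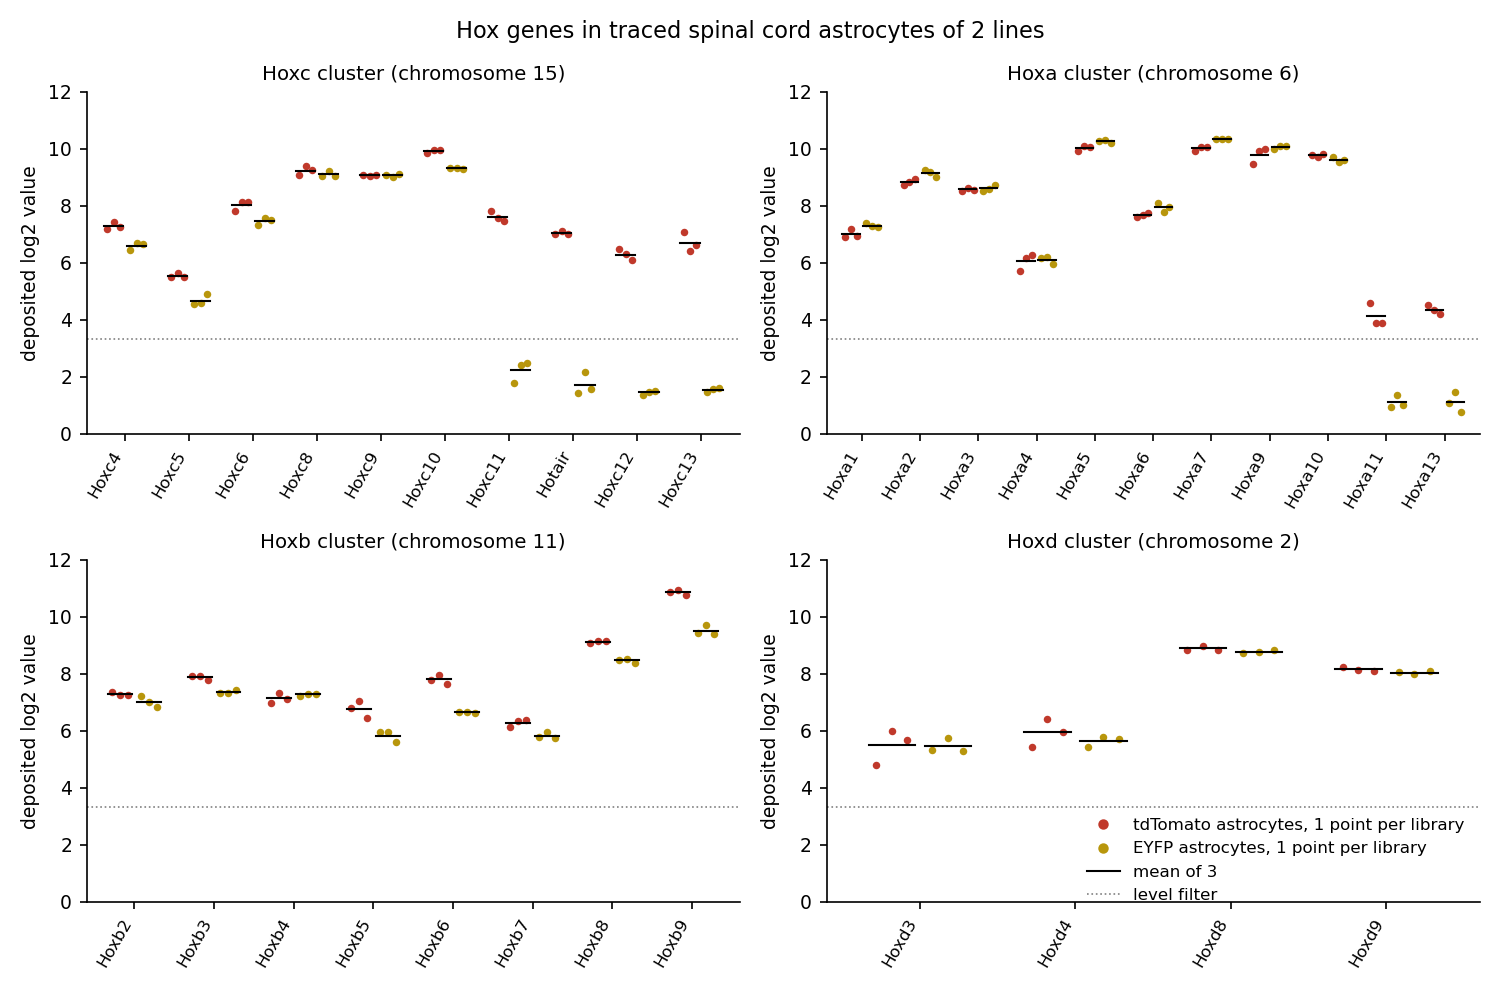
Deposited log2 value (vertical axis) of the Hox genes tested in each of the 4 clusters, in order along the cluster from anterior to posterior, for 3 tdTomato and 3 EYFP astrocyte libraries (points) with the mean of each line (bars) and the level of 3.32 (dotted line). The points of the 2 lines lie furthest apart at Hoxc11, Hotair, Hoxc12, Hoxc13, Hoxa11 and Hoxa13, where the EYFP libraries lie below the dotted line. Smaller differences without overlap include those of Hoxb9 (1.34), Hoxb6 (1.15) and Hoxc5 (0.87).

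Among the factors that pattern the neural tube from dorsal to ventral, 8 of 17 were higher in tdTomato astrocytes and none lower. Zic4, Msx2 and Atoh1, 3 of the 8, were below the level in every EYFP library, so they passed only through the line in which they were higher. Of the other 14 factors 5 were higher and none lower, with a median of 0.210. Zic1, a zinc finger factor of the dorsal neural tube, was at 7.24, 7.12 and 7.37 in tdTomato and at 4.33, 4.69 and 4.29 in EYFP astrocytes (difference 2.81, SE 0.15, adjusted p = 1.3e-05). Its neighbour Zic4 was at 3.92, 3.84 and 3.99 against 1.95, 2.03 and 2.07, a difference of 1.90. Msx2 and Msx1, homeodomain factors of the dorsal midline that BMP signals induce, were higher by 1.97 and 0.41. Atoh1, which marks the most dorsal progenitors, was at 4.21, 3.44 and 3.59 against 2.75, 2.46 and 2.40, and its call was lost without any 1 of 4 libraries.

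Of the ventral factors, 3 were higher in the same line and Olig2 was not called. Foxa1, of the floor plate, was at 5.46, 5.11 and 5.44 in tdTomato and at 3.36, 3.10 and 3.74 in EYFP astrocytes, a difference of 1.93. Nkx2-2, of ventral progenitors next to the floor plate, was higher by 1.51, and Nkx6-1, of the ventral cord as a whole, by 0.89 (SE 0.06, adjusted p = 3.8e-05). The called dorsal and ventral genes thus differed in the same direction. Pax6 (0.21), Olig2 (0.19) and Zic2 (-0.02), which were all above 8 in every library, were not called. Leaving out 1 library gave 7 to 10 genes higher and none lower.

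The clustered protocadherins, cell surface proteins of which each cell uses a few isoforms, moved strongly in both directions. This list was added after its values had been seen. Of 49 tested, 16 were higher and 10 lower in tdTomato astrocytes, with a median of 0.063. Without 1 that passed through the EYFP line alone, 9 of 48 were lower, with a median of 0.116. Pcdhgb5 was at 5.61, 5.93 and 6.00 in tdTomato and at 10.51, 10.34 and 10.46 in EYFP astrocytes (difference -4.59, SE 0.11, adjusted p = 5e-08). Pcdhga8 was at 6.07, 6.33 and 6.29 against 10.41, 10.66 and 10.60 (difference -4.33), and Pcdhga5 was lower by 2.74.

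Other isoforms of the gamma cluster were higher in the tdTomato line. Pcdhga10 was at 9.86, 9.90 and 9.92 in tdTomato and at 6.73, 6.53 and 6.24 in EYFP astrocytes, a difference of 3.39 (SE 0.12, adjusted p = 6.4e-07). Pcdhga2 and Pcdhgb6 were higher by 2.32 and 2.11. Gamma isoforms join their own first exon to 3 exons that all share. Of the runs of 50 bases in their transcripts, 35.5% to 51.4% also occurred in another gene for these 6, so their values depend on how shared reads were divided. That the lines did not overlap in these 6 was likewise required by the rule for naming genes.

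Cxcl12 and Slit3, both secreted guidance factors, were higher in tdTomato. Cxcl12, the chemokine that acts on Cxcr4 and attracts progenitors and immune cells, lies on chromosome 6 from 117168535 to 117181367. It was at 8.41, 8.13 and 7.99 in tdTomato and at 3.44, 3.08 and 3.12 in EYFP astrocytes, a difference of 4.97 (SE 0.17, adjusted p = 5.2e-07). Slit3, a ligand of Robo receptors, was at 6.00, 5.49 and 4.44 against 1.04, 0.31 and 0.34, a difference of 4.75. Its tdTomato values spread widely, and all lay above the level while all EYFP values lay below it, so it passed only through the tdTomato line and no test is given. Bdkrb2, the bradykinin B2 receptor, was at 4.74, 5.44 and 4.81 against 1.84, 1.68 and 1.99, a difference of 3.16, with its EYFP values likewise below the level.

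Among protein-coding genes whose higher group reached 6.64 (100 on the linear scale), the others with the largest excess in tdTomato were of mixed function. St6gal2, a sialyltransferase, was higher by 2.41, Abca9, a lipid transporter of the ABC family, by 2.26 and Tchh, trichohyalin, by 2.23. Mical1, an enzyme that oxidises actin, was higher by 2.17. Snai2, a zinc finger repressor of epithelial genes and a marker of migrating neural crest, was at 7.34, 7.49 and 7.13 in tdTomato and at 5.52, 5.64 and 4.56 in EYFP astrocytes (difference 2.08, SE 0.26, adjusted p = 0.0013). The groups of these genes did not overlap, which the rule for naming genes required.

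At the same level of 6.64, the protein-coding genes with the largest deficit in tdTomato, apart from protocadherins, were also of mixed function. Mamdc2, a protein with MAM domains, was at 6.99, 6.96 and 6.76 in tdTomato and at 9.66, 9.88 and 9.76 in EYFP astrocytes (difference -2.87, SE 0.09, adjusted p = 3.7e-07). Myof, myoferlin, which repairs and fuses plasma membranes, was at 6.41, 5.87 and 6.19 against 8.78, 8.52 and 8.68 (difference -2.50). Pyroxd2 was lower by 2.36. These 3 lie on chromosome 19, where most genes differed by a small amount in the other direction. Mybpc1, a myosin-binding protein of slow muscle, differed by -2.28 and Lama4, a laminin chain of basement membranes, by -2.19.

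Eya1, a transcriptional cofactor for homeodomain proteins, was at 6.19, 6.56 and 6.59 in tdTomato and at 8.35, 8.71 and 8.91 in EYFP astrocytes, a difference of -2.21 (SE 0.16, adjusted p = 7.7e-05). Gpr37l1, a receptor of astrocytes for prosaposin-derived peptides, was at 8.90, 8.39 and 9.10 against 10.88, 10.40 and 11.28, a difference of -2.06. Ispd, an enzyme for the sugar chain of dystroglycan, differed by -1.93. Pdk4, the kinase that shuts pyruvate out of the citric acid cycle, was at 7.17, 6.88 and 7.32 against 8.73, 9.13 and 9.18 (difference -1.89, SE 0.15, adjusted p = 0.00011).

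Among genes that do not code for protein and reached 6.64 in the higher group, Hotair and Gt(ROSA)26Sor had the largest excess in tdTomato. Gt(ROSA)26Sor is the transcript of the locus that carries the reporter in both lines. It was at 7.03, 7.59 and 7.62 in tdTomato and at 4.84, 5.30 and 5.24 in EYFP astrocytes (difference 2.29, SE 0.19, adjusted p = 0.00018). As NSCs the difference was 1.77 (adjusted p = 8.7e-05). Its neighbours Thumpd3 and Setd5, looked at after these values were seen, were not called in astrocytes (-0.01 and -0.07). As NSCs Setd5 was lower in tdTomato by 0.23 (adjusted p = 0.0026), and Thumpd3 was not called (-0.02). Hippocampal astrocytes, which also carry an EYFP reporter at this locus, had a mean of 5.61. The largest deficits among them were those of Gm15590 (-1.56), a processed pseudogene of which 76.9% of the runs of 50 bases occurred in another gene, and of the antisense transcript B230334C09Rik (-1.11). The strand setting of the authors' counting was not given in the sources used here, so antisense values may hold reads of the opposite gene.

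Genes of cholesterol and fatty acid synthesis were lower in tdTomato astrocytes as a group. Sterol synthesis runs from acetyl-CoA through mevalonate and squalene to cholesterol, and the factors Srebf1 and Srebf2 switch on its enzymes when sterols in the membrane fall. Of 34 genes tested, 19 were lower and 1 higher, and 14 were not called. The median difference of the 34 was -0.274, and 30 of the 34 were below 0. Leaving out 1 library left 13 to 20 lower, and without the genes of distal chromosome 14 and chromosome 19, 19 of 29 were lower.

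The differences of the called enzymes were modest in size. Hmgcs1, which makes HMG-CoA, was at 12.88, 13.02 and 13.01 in tdTomato and at 13.46, 13.53 and 13.48 in EYFP astrocytes (difference -0.52, SE 0.05, adjusted p = 0.00041). Idi1, the isomerase of isopentenyl diphosphate, was at 9.27, 9.52 and 9.47 against 9.98, 9.99 and 10.08 (-0.60), with 17.7% of its runs of 50 bases in another gene. Msmo1 and Cyp51, which remove methyl groups of lanosterol, differed by -0.52 and -0.37, and Fdft1, Fdps, Mvk, Lss, Sc5d and Dhcr7 by -0.44 to -0.26. The calls of Fdps, Mvk, Lss, Sc5d and Dhcr7 were each lost without any 1 of 1 to 4 libraries.

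Regulators of the pathway were lower as well. Insig1, which holds the Srebf proteins back in the endoplasmic reticulum and is itself one of their targets, was at 10.37, 10.52 and 10.38 in tdTomato and at 10.94, 10.90 and 11.02 in EYFP astrocytes (difference -0.53, SE 0.06, adjusted p = 0.0005). Srebf1 and Srebf2 differed by -0.56 and -0.39. Sqle, which makes squalene epoxide, was not called (-0.17). Of the fatty acid enzymes, Fasn and Acss2 were lower by 0.32 and 0.30, Scd1 and Acaca were not called, and Fads1, a desaturase on chromosome 19, was higher by 0.19. The call of Fasn was lost without any 1 of 4 libraries. No member of the list was called higher when any 1 library was left out.

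In NSCs the group lay on the other side of 0. The median difference of the 34 genes in NSCs was 0.170, and only 2 of the astrocyte calls were called there in the same direction. The line difference in astrocytes minus that in NSCs passed an adjusted p of 0.05 in 22 of the 34, against 11.8% of all autosomal genes tested in that comparison. For Idi1 it was -0.94 (adjusted p = 0.0016) and for Msmo1 -0.80, while for Srebf1 it was -0.08 (adjusted p = 0.64).

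**Figure D3:**
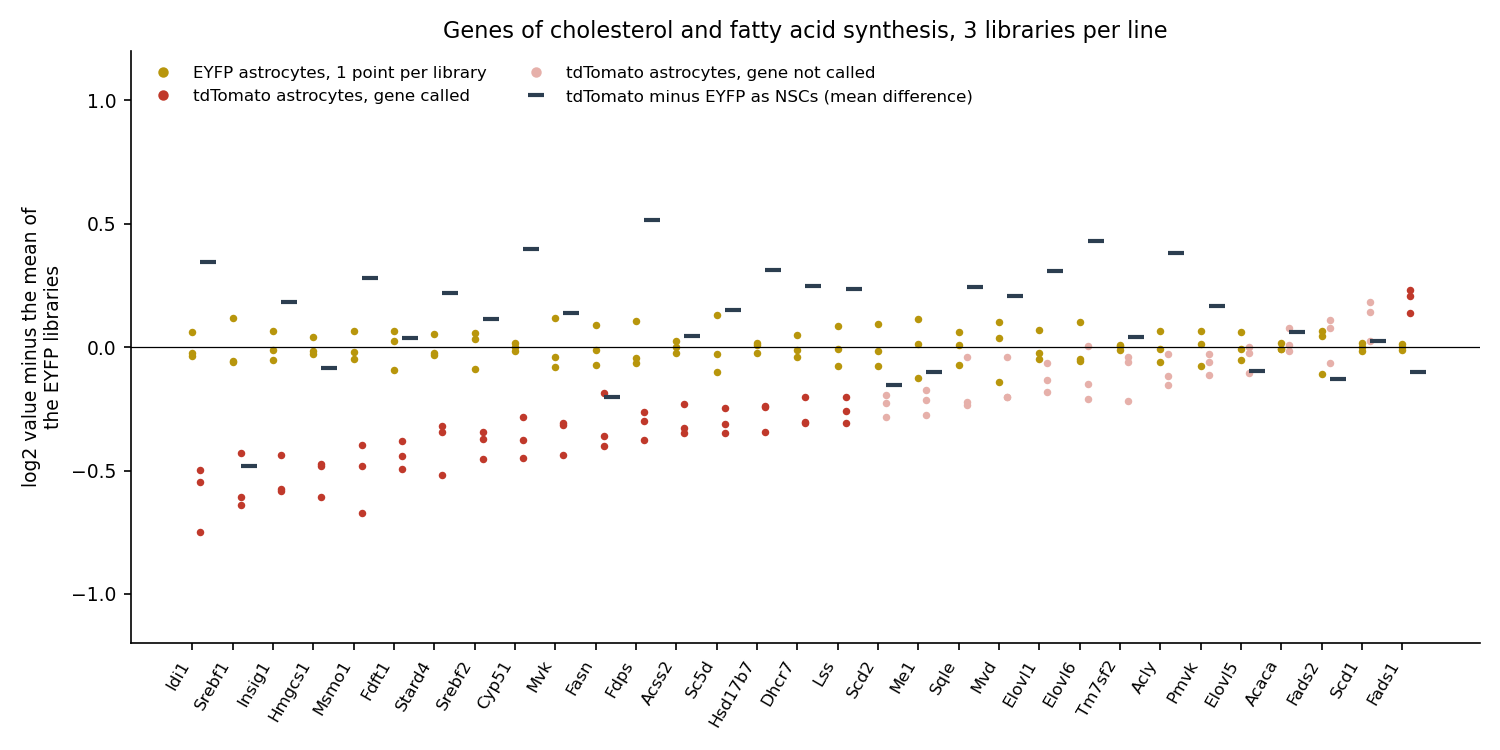
Log2 value of 31 of the 34 genes of cholesterol and fatty acid synthesis minus the mean of the 3 EYFP astrocyte libraries (vertical axis), genes in order of their difference, with 1 point per library (pale where the gene was not called) and a dash for the mean line difference in NSCs. The tdTomato points of the 17 lower genes shown, from Idi1 at -0.60 to Lss at -0.26, lie below the EYFP points, while most dashes lie above 0 (median of all 34 genes 0.170).

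The promoters of 3 of these genes are shown because members of the list differed in the same direction, with 2 kinds of letters known from sterol genes searched in them. They are RefSeq entries on GRCm38.p6, each 300 bases from 250 before to 50 after the start, read 5′ to 3′ along the gene, here all on the plus strand. Capitals mark CCAAT or its reverse complement ATTGG, the letters bound by NF-Y, and TCACCCCAC or its reverse complement GTGGGGTGA, a form of the sterol element bound by Srebf proteins. The promoters are those of Hmgcs1 at chr13:119690101-119690400, Insig1 at chr5:28071162-28071461 and Idi1 at chr13:8885356-8885655.
Hmgcs1: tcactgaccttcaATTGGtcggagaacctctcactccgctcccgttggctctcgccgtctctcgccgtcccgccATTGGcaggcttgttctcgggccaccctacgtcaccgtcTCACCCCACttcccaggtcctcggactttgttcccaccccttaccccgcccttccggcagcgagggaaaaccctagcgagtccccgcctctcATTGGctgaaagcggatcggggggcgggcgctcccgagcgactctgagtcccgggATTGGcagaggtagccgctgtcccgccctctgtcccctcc
Insig1: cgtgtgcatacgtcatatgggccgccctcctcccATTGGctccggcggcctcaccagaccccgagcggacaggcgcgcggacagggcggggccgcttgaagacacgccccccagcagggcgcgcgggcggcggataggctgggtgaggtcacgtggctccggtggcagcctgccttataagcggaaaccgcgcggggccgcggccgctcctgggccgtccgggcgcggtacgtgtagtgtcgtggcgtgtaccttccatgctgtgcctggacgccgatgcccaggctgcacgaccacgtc
Idi1: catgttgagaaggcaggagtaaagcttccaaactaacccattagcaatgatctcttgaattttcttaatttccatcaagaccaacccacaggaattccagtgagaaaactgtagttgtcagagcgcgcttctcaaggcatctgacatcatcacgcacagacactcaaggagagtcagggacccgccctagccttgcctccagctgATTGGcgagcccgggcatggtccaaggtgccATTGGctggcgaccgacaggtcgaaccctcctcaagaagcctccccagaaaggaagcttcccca
The promoter of Hmgcs1 held ATTGG 4 times and TCACCCCAC 1 time, that of Insig1 ATTGG 1 time and that of Idi1 ATTGG 2 times. No stretch matched both elements. CCAAT or ATTGG occurred in all 14 of the lower genes that have an entry and in 21 of the 24 members tested that have one (87.5%), against 41.1% of 27025 genes with an entry. TCACCCCAC occurred in 1 of the 24 members, Hmgcs1, and in 0.614% of all genes. With any base at the fifth position (TCACNCCAC) the shares were 4.17% of the members and 1.44% of all genes. These are matches of letters within 300 bases and no binding was measured.

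Genes that carry and store lipids were lower on balance as well. Of 29 tested, 11 were lower and 4 higher. Without Fabp3, which passed through the EYFP line alone, 10 of 28 were lower, with a median of -0.109. Fabp3, a carrier of fatty acids, was at 2.30, 1.36 and 1.68 in tdTomato and at 3.80, 3.96 and 4.28 in EYFP astrocytes, a difference of -2.23, and 29.2% of its runs of 50 bases occurred in another gene. Clu, the secreted apolipoprotein clusterin, was at 12.64, 12.29 and 12.48 against 13.37, 13.26 and 13.42 (difference -0.88, SE 0.08, adjusted p = 0.00032). Ptgds was lower by 0.75. Abca9 and Abca8a, neighbouring transporters on chromosome 11, were higher by 2.26 and 1.03. Apoe, the main lipoprotein of astrocytes, overlapped between lines (-0.16, adjusted p = 0.54). Without tdTomato replicate 2 or EYFP replicate 1, 6 genes of this list were lower, and without tdTomato replicate 3 or EYFP replicate 3, 7 were.

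Astrocyte identity genes differed in both directions, 8 lower and 4 higher of 30 tested, with a median of -0.069. Aqp4, the water channel of astrocyte endfeet, was at 12.07, 11.68 and 11.98 in tdTomato and at 13.75, 13.63 and 13.84 in EYFP astrocytes (difference -1.83, SE 0.10, adjusted p = 1.3e-05). Slc1a2, which encodes the glutamate transporter GLT-1, went the other way by a small amount, at 15.06 to 15.08 against 14.70 to 14.89 (difference 0.28, adjusted p = 0.026), and its call was lost without tdTomato replicate 2 or 3 or EYFP replicate 1 or 2. S100b was higher by 0.50. Gfap (-0.53, adjusted p = 0.20), Aldh1l1 (-0.03), Slc1a3 (-0.09) and Gja1 (0.25) were not called. The higher count was 2 without tdTomato replicate 2 or 3 or EYFP replicate 1 or 2.

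Carriers, channels and receptors followed the same mixed course. Of 41 uptake carriers 6 were higher and 8 lower. Without Slc6a15, which was below the level in every EYFP library, 5 of 40 were higher. Slc14a1, the urea transporter of glia, was at 8.24, 8.16 and 8.45 in tdTomato and at 9.43, 9.70 and 9.58 in EYFP astrocytes (-1.28), and Slc2a10 was lower by 1.85. Slc6a15 and Slc6a17, carriers of neutral amino acids, were higher by 1.84 and 1.42. Without 1 of 4 libraries (tdTomato replicates 1 and 2, EYFP replicates 1 and 3), 4 or 5 carriers were lower. Of 68 ion channels and ionotropic receptors, 14 were higher and 9 lower. The GABA-A receptor subunits Gabrb2 and Gabrg3 were higher by 1.71 and 1.25, and Kcnma1, the BK potassium channel, by 1.37. Grik3, a kainate receptor subunit, was lower by 1.65. Of 37 glial receptors coupled to G proteins, 5 were higher and 8 lower, 2 of the higher ones below the level in every EYFP library, with Bdkrb2 at the top and Gpr37l1 and Adgrv1 (-1.26) at the bottom. Without tdTomato replicate 1 or 2 or EYFP replicate 1, 3 of these receptors were higher, and without EYFP replicate 3, 2 were.

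Extracellular matrix genes were called in both directions, with more of them higher in tdTomato astrocytes. Of 25 collagens, 9 were higher and 2 lower. Without 2 that passed through 1 line alone, Col3a1 among them, 8 of 23 were higher and 2 lower, with a median of 0.284. Col3a1, a fibrillar collagen, was at 3.59, 3.99 and 4.10 in tdTomato and at 1.38, 1.45 and 1.84 in EYFP astrocytes, a difference of 2.34. Col6a3 and Col12a1 were higher by 1.73 and 0.72. Of 24 genes of endothelium, pericytes and fibroblasts, 10 were below the level in all 6 libraries, among them Dcn, Dpt, Col1a2 and Pdgfrb. Col1a1 (0.47) and Lum (0.68), at 3.94 to 5.12 and 3.65 to 4.74, were not called, and Col3a1 and Foxc1 (0.36) were higher in tdTomato.

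Of 54 matrix glycoproteins and proteoglycans, 12 were higher and 6 lower. Tnc, tenascin C of the stem cell niche and of scars, was at 13.59, 13.68 and 13.56 in tdTomato and at 12.48, 12.76 and 12.25 in EYFP astrocytes (difference 1.11, SE 0.11, adjusted p = 0.00041). Fbln2, fibulin 2, was higher by 1.36 and Vcan, versican, by 1.09. Ncan, neurocan, was lower, at 13.94, 14.02 and 13.73 against 14.83, 15.07 and 14.64 (-0.95). The proteoglycans Vcan and Ncan thus differed in opposite directions. Of 39 proteases and inhibitors, 9 were higher and 3 lower, among them Mmp14, a membrane-bound collagenase (0.97, SE 0.06, adjusted p = 3.5e-05), and the lysosomal protease Ctsh (1.57).

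Axon guidance genes numbered 57, of which 15 were higher and 7 lower. Without Slit3, which passed through the tdTomato line alone, 14 of 56 were higher. After Slit3, the largest was Efna5, an ephrin, at 6.93, 6.82 and 6.70 in tdTomato and at 5.10, 5.53 and 5.41 in EYFP astrocytes (difference 1.47, adjusted p = 0.0004). Plxna4, a semaphorin receptor, was higher by 0.87, and the Slit receptor Robo1 by 0.46. The ephrin Efna1 was lower by 0.84, a call lost without any 1 EYFP library. Without tdTomato replicate 2, EYFP replicate 1 or EYFP replicate 3, 4, 4 and 3 were lower. Of 55 other adhesion genes 12 were higher and 7 lower. Cdh23, a cadherin best known from hair cells, was at 7.74, 7.90 and 7.87 against 6.55, 6.66 and 5.92 (1.46), and Itga7, a laminin-binding integrin, was lower by 1.22. Without EYFP replicate 3, 4 adhesion genes were lower.

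The BMP and TGF-beta pathway had 10 of 41 genes higher and 3 lower. Without Msx2, which was below the level in every EYFP library, 9 of 40 were higher. The ligands Bmp2 (at 6.10, 5.83 and 5.76 against 4.34, 3.98 and 3.48) and Bmp6 were higher in tdTomato astrocytes by 1.97 and 1.38, and Bmper, a secreted modulator of BMP, by 1.15. The call of Bmp6 was lost without EYFP replicate 3. The direct BMP targets were split, with Msx2 and Id4 higher by 1.97 and 0.59, Id2 lower by 0.74, and Id1 (-0.17), Id3 (-0.01) and Smad6 (-0.07) not called. The receptor Bmpr1b was lower by 0.54.

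In the Notch pathway 4 of 25 genes were lower and none higher. Hes5, a target of Notch in neural progenitors, was at 6.78, 6.82 and 7.17 in tdTomato and at 7.81, 7.75 and 7.80 in EYFP astrocytes (difference -0.86, SE 0.12, adjusted p = 0.0019). The ligand Dll1 and the inhibitor Numbl were lower by 0.82 and 0.52. Of 33 Wnt genes 6 were higher and 3 lower, with a difference of -0.86 for the ligand Wnt7b and of 0.62 for the receptor Fzd1. Of 10 hedgehog genes, the effector Gli2 was higher by 0.73 and Disp1, which releases the ligand, lower by 0.66. Of 35 genes of FGF and EGF signalling 7 were higher and 3 lower. The feedback inhibitors Spry1 and Dusp6 were higher by 0.88 and 0.74, while Spry2, on distal chromosome 14, was lower by 0.38. The calls of Dusp6 and Spry2 were each lost without any 1 of 2 libraries. Erbb4, a receptor of neuregulins, was at 10.16, 10.29 and 10.51 against 11.40, 11.57 and 11.54 (-1.18). Without EYFP replicate 1 or 3, 4 and 3 genes of this list were higher.

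Of 35 interferon-stimulated genes, 12 were higher and 3 lower, with a median of 0.221. Trim25, Iigp1 and Irf7 were higher by 1.63, 1.32 and 1.25. Ifi35 stood out in the other direction, at 4.19, 3.96 and 3.61 in tdTomato and at 6.14, 6.09 and 5.68 in EYFP astrocytes (-2.05, SE 0.21, adjusted p = 0.00042). Without tdTomato replicate 2 or 3 or EYFP replicate 1 or 3, 6 or 7 genes were higher. Of 18 genes of antigen presentation by MHC class I, 3 were higher, among them H2-D1 (0.70) and H2-T23 (0.64), with 12.8% and 13.6% of their runs of 50 bases in another gene. Of 15 complement genes 4 were higher and 1, Clu, lower, or 3 of 14 higher without 1 gene that was below the level in every EYFP library. Of 25 genes linked to reactive astrocytes, 5 were higher and 5 lower, or 4 of 24 higher without 1 such gene, the lowest being Ggta1 (-1.51) and Clcf1 (-1.50). Without tdTomato replicate 2, EYFP replicate 1 or EYFP replicate 3, 3 genes of that list were lower.

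No difference was called among proliferation genes. None of 46 S phase and G2/M genes was called by limma, 4 had an unadjusted p under 0.05, and the median difference was 0.038. Inhibitors of the cycle were called in opposite directions. Cdkn1a, the p21 inhibitor, was at 11.86, 11.91 and 11.96 in tdTomato and at 10.87, 10.77 and 10.68 in EYFP astrocytes (difference 1.14, SE 0.06, adjusted p = 7.2e-06). Cdkn2a, the locus of p16 and p19, was at 9.74, 9.66 and 9.75 against 10.76, 10.64 and 10.72 (difference -0.99, SE 0.05, adjusted p = 1.2e-05). The D cyclin Ccnd1 was higher by 0.77.

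The list of ribosomal genes lay below the share of 11.0% called over all genes, and that of respiratory chain genes lay near it. Of 77 cytosolic ribosomal proteins only Rps27l was called (0.25), and its call was lost whenever a library was left out. Of 63 respiratory chain subunits, 6 were higher by 0.18 to 0.25 and none lower (9.52%), and 54 of the 63 differences were above 0. Without 1 library, 1 to 4 of them were higher, the fewest without tdTomato replicate 2. Of 31 genes of glycolysis and glycogen, 2 were higher and 2 lower (12.9%), also near the 11.0% of all genes. The next lists, of detoxification, imprinted genes and the S100 families, lay above it. In the list of oxidative stress and detoxification, 5 of 41 were higher and 6 lower. Nqo1, a quinone reductase that Nrf2 induces, was at 8.01, 8.14 and 8.02 in tdTomato and at 9.35, 9.41 and 9.54 in EYFP astrocytes (difference -1.37, SE 0.07, adjusted p = 1.2e-05). Without EYFP replicate 2, 11 genes of that list were lower. Of 31 imprinted genes, 4 were higher and 4 lower, with Ndn, necdin, lower by 1.32 and Sfmbt2 higher by 0.79. Without tdTomato replicate 2 or 3, 2 imprinted genes were higher and 2 lower, and without EYFP replicate 1, 2 were higher. In the S100, annexin and calponin families 4 of 23 were higher and 5 lower. There 2 were higher without tdTomato replicate 1 or 3, and 3 were lower without tdTomato replicate 2 or 3 or EYFP replicate 3.

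Apart from the Schwann and neural crest list, markers of other cell types that reached the level held 1 to 3 calls a list. Of 22 neural stem and progenitor genes, 1 (Tnc) was higher and 2 (Hes5 and Fabp7) lower. Of 21 ependymal genes tested, 3 were lower, and 0 to 3 were when 1 library was left out. Of 10 oligodendrocyte lineage genes 2, Nkx2-2 and Cspg4 (0.45), were higher and 1, Cnp (-0.51), lower. Of 12 neuronal genes 2 were higher, Rbfox3 (0.48) and Gad1 (1.37), which makes GABA, and the call of Rbfox3 was lost in 9 of the 16 alternatives. Of 8 microglial genes tested, 1 was higher, Tmem119, at 5.74, 5.40 and 4.95 against 3.63, 4.13 and 3.17 (1.72), with Ptprc, Aif1, Itgam, P2ry12 and Spi1 below the level in all 6 libraries. Of 14 genes of endothelium, pericytes and fibroblasts 2 were higher, Col3a1 and Foxc1 (0.36), and the call of Foxc1 was lost without tdTomato replicate 2 or EYFP replicate 1 or 3. Col3a1 was below the level in every EYFP library.

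**Figure D4:**
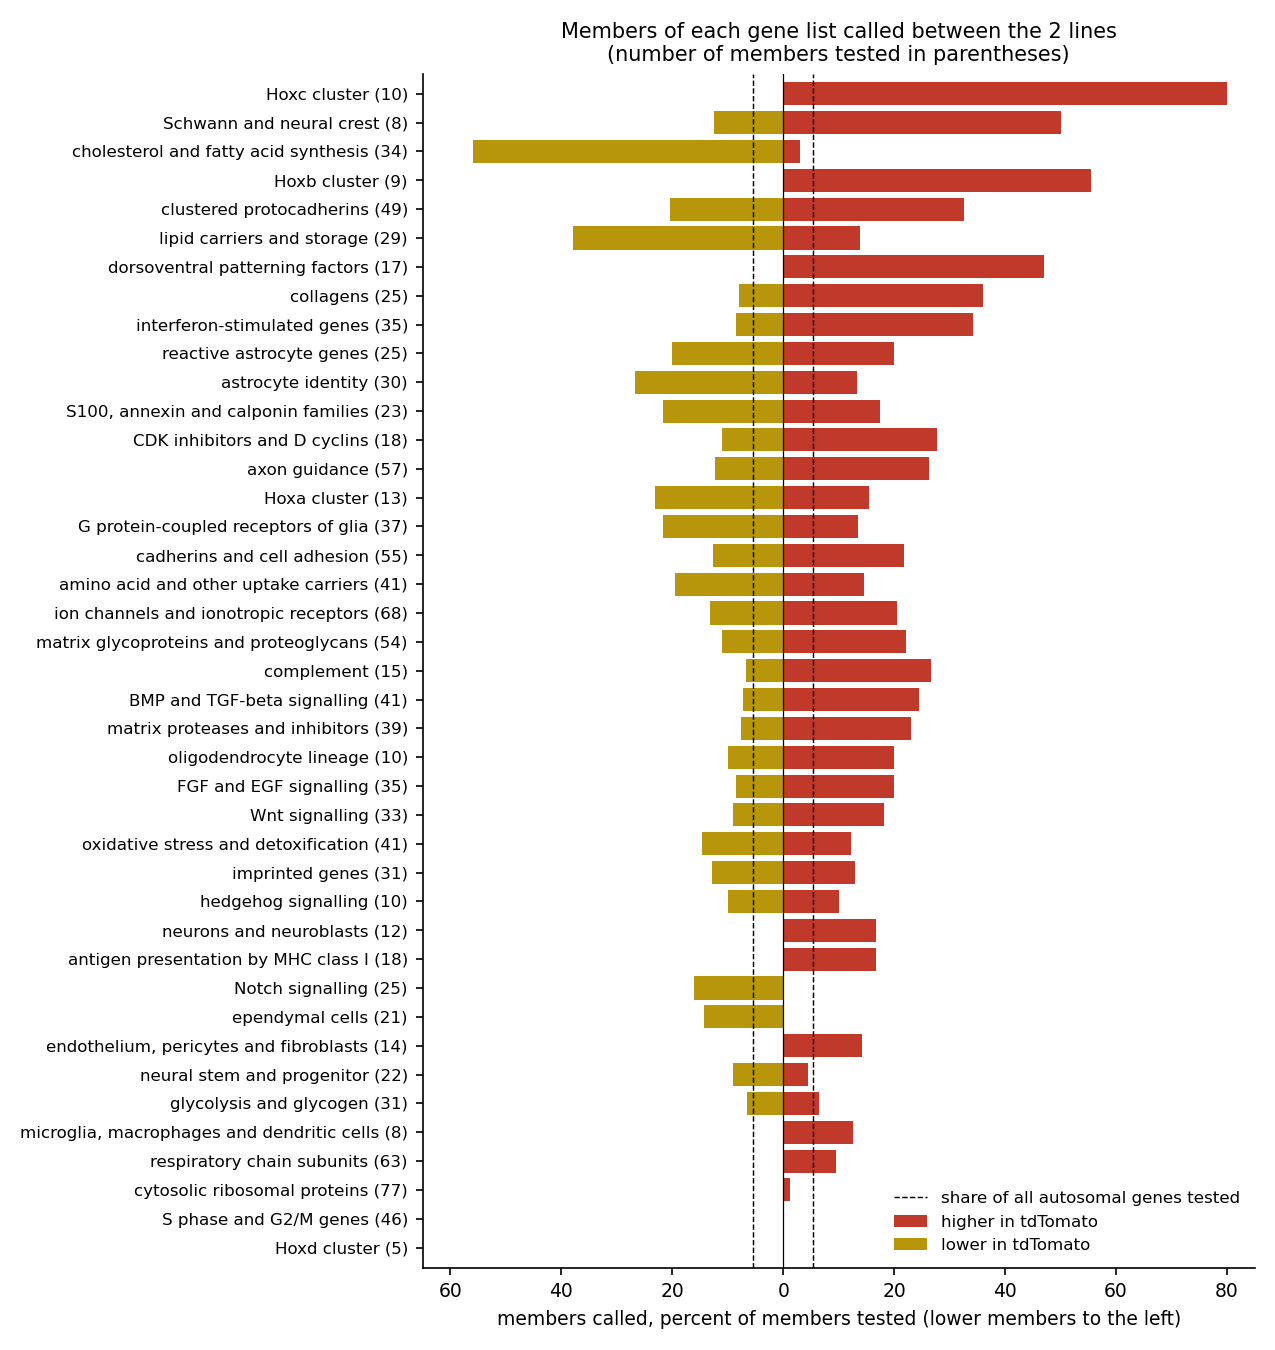
Share of the tested members of each gene list that were called higher (right) or lower (left) in tdTomato astrocytes, in percent, with the number tested in parentheses and dashed lines at the shares of all autosomal genes, 5.46% and 5.49%. The Hoxc cluster reaches 80.0% in 1 direction, 4 of its 8 calls being genes below the level in every EYFP library, cholesterol and fatty acid synthesis lies mostly to the left, and the S phase and G2/M list has no bar.

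Genes were also viewed by their place on the chromosomes, a view chosen after the values had been seen and given as a description. Only genes of at least 100 on the linear scale in 3 or more libraries were used, 10741 in all. Their median difference was -0.008, and that of 17 of the 19 autosomes lay between -0.021 and 0.002. Chromosome 14 was at -0.041 and chromosome 19 at 0.088.

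On chromosome 14 the difference lay mainly at the distal end, from Enox1 to Fgf14 (77156763 to 124677127). There 58 of 62 genes were below 0 in tdTomato astrocytes, with a median of -0.340 and a middle range from -0.434 to -0.216. Of the 78 genes tested at any level, 39 were lower and 2, Pcdh17 and Slitrk6, higher. The 307 genes nearer the centromere had a median of -0.011. As deviations from the mean of the 6 libraries, the medians of the distal genes were -0.189, -0.160 and -0.140 in the tdTomato libraries and 0.150, 0.196 and 0.168 in the EYFP libraries. In NSCs 54 of the 62 were below 0, with a median of -0.248. The region holds genes of unrelated function, such as the splicing regulator Mbnl2 (-0.42), the importin Ipo5 (-0.35), the endothelin receptor Ednrb (-0.53) and the progenitor factor Sox21 (-1.25).

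On chromosome 19 the difference was spread over the whole chromosome and small. Of 399 genes, 314 were above 0 in tdTomato astrocytes, with a median of 0.088, and 55 of 495 were called higher and 15 lower. The median deviations were 0.054, 0.033 and 0.042 in the tdTomato libraries and -0.043, -0.057 and -0.022 in the EYFP libraries, without overlap. In NSCs the median was 0.016, close to that of all autosomal genes (0.015), and the libraries of the lines overlapped. DNA was not measured, so copy number was not tested. Without both regions, 1429 genes were called, 711 higher and 718 lower.

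**Figure D5:**
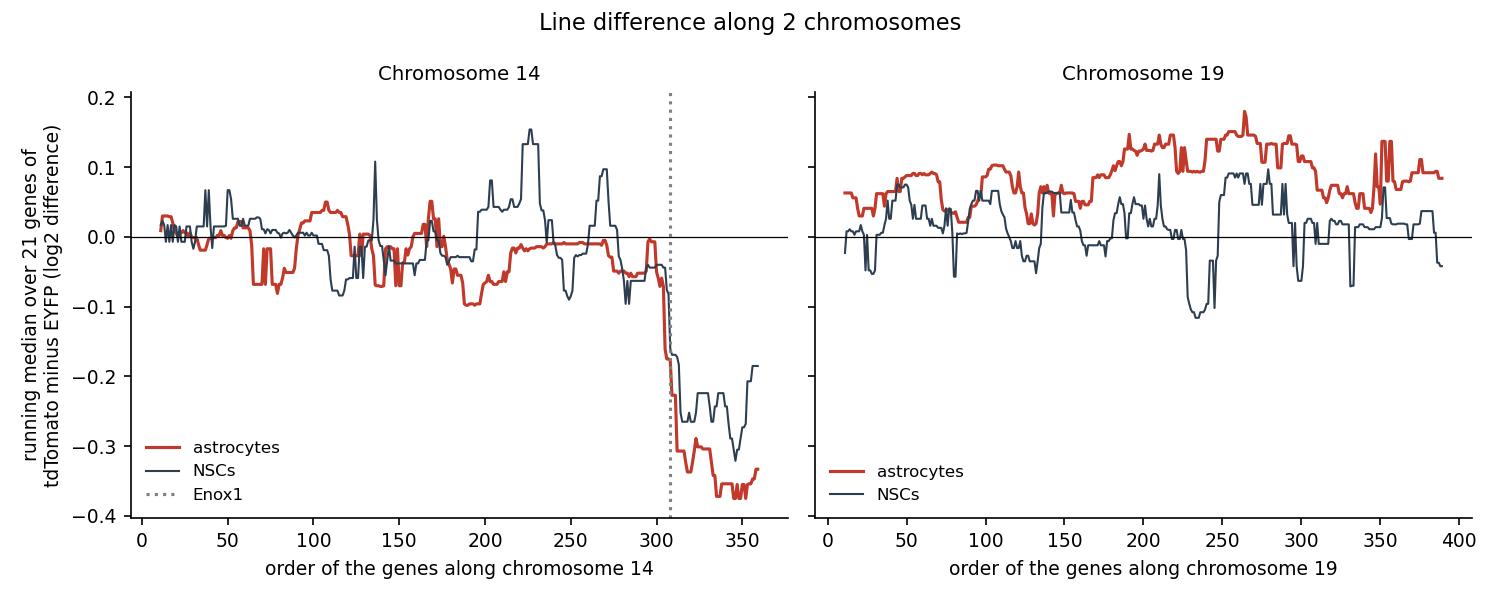
Running median over 21 neighbouring genes of the line difference (vertical axis, log2, tdTomato minus EYFP) along chromosomes 14 and 19 in gene order (horizontal axis), in astrocytes and NSCs, with Enox1 marked. On chromosome 14 both curves move around 0 up to Enox1 and fall towards the regional medians of -0.340 and -0.248 beyond it, and on chromosome 19 the astrocyte curve stays above 0 throughout.

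The same lines as NSCs gave more calls, 4557 of 13746 autosomal genes (33.2%). Of the 1540 genes called in astrocytes, 769 (49.9%) were called in the same direction in NSCs, which is 16.9% of the NSC calls, and 107 were called in the opposite direction. The line difference itself changed between fates in 1713 of 14535 genes (11.8%), among them 515 of the 1540 (33.4%). The posterior Hoxc genes differed between lines in both fates. For Hoxc11, Hoxc12, Hoxc13 and Hotair the NSC differences were 5.84, 5.20, 5.42 and 4.84. Their EYFP means lay below the level in both fates, so no test of a change between fates is given for these 4. Zic1 (3.20 in NSCs), Pcdhgb5 (-4.07), Pcdhga8 (-4.07), Mamdc2 (-3.49) and Eya1 (-2.88) had no called change between fates (adjusted p = 0.061 to 0.35), whereas Hoxb8 (0.78 larger in astrocytes) did. Hoxa13 passed the level only through tdTomato astrocytes, so no test of its change is given.

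Other genes differed mainly after BMP4. The line difference of Cxcl12 was 4.97 in astrocytes and 1.30 in NSCs, 3.66 larger in astrocytes (adjusted p = 2.2e-05). Slit3 was above the level only in tdTomato astrocytes, with means of 0.555 and 0.241 in tdTomato and EYFP NSCs. No test of its change between fates is given. Tnc differed by 1.11 in astrocytes and by 0.09 in NSCs, Bmp2 by 1.97 and 0.51, and Bmper by 1.15 and 0.12. Gli2 was higher in tdTomato astrocytes by 0.73 and lower in tdTomato NSCs by 0.88, a change of 1.62 (adjusted p = 0.00021). Tmem119 and Cdh23 had the larger difference in NSCs (3.78 and 3.31).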

How the data were processed

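RNA was sequenced from 18 cultures. The authors trimmed the reads (Trimmomatic 0.36), aligned and counted them per gene against GRCm38 (RSEM 1.3.0 with STAR 2.5.2) and normalized them with DESeq2 1.18.1 in R 3.4.3, as the submitters' processing notes name these tools. The libraries were made with a stranded mRNA kit. The deposited values are log2 values in the form of a regularized log. The transform itself, the strand setting of the counting and the exact depth of each library are not given in the sources used here, and the methods of the study state 1 approximate depth for all samples. Since 29.4% of the values are negative and weak genes are shrunk, no count model was used.

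Genes were placed with GENCODE M21 (GRCm38), in which 93 of 27997 were not found. A gene was tested where its value was at least 3.32 in 3 or more of the 6 astrocyte libraries. The lines were compared with limma 3.58.1 in R 4.3.3 (variance trend on, no covariates) on 14616 genes of all chromosomes, with Benjamini-Hochberg adjustment over all of them and a threshold of 0.05. Only autosomal genes were counted. The NSC libraries were compared in a fit of their own, and the difference between fates was tested as an interaction over the 12 libraries. Differences are tdTomato minus EYFP. The procedure was tested on simulated data.

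Named genes were called, did not overlap between groups and reached 6.64 (100 on the linear scale) in the higher group: the 12 protein-coding genes with the largest difference in each direction and 2 of other biotypes. Up to 4 called members of each list with the largest difference were named too, and members that define a list. Other genes were chosen after their values were seen. Some genes are not reported here, although counts and medians of lists include them. The members and lists were chosen with earlier results of these data known. Replicates were cultures of 1 line at different passages, so p-values do not cover variation between animals. With 3 libraries against 3, single values cannot be tested by permutation below 0.1. Sharing of sequence was counted as runs of 50 bases in the transcripts of a gene that also occur in another gene. Alternatives were other filters, scalings and pseudocounts, no trend, all 18 libraries, adjustment over autosomal genes, a replicate block and each library left out.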

Additional observations from a re-analysis of the deposited data

Results flagged for a closer look

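The groups of 3 libraries are too small for a test of single outlying libraries. Of 181 genes named in the report that were tested, 80 had a line difference that changed between astrocytes and NSCs (limma, interaction of line and fate, adjusted p under 0.05). The value of each is the tdTomato minus EYFP difference in astrocytes minus that in NSCs, on the log2 scale, and was positive in 51 and negative in 29. Over all autosomal genes tested, the line difference changed in 1713 of 14535 (11.8%). Many of the 181 genes were named for a large line difference in astrocytes, which is part of this value. That choice can raise the count of 80, so it was not tested against the share of all genes.

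The negative values were led by Tmem119 (-2.06), a microglial marker, the myelin-associated Mal (-1.92) and the cadherin Cdh23 (-1.85). Tmem119 and Cdh23 had the larger excess in tdTomato as NSCs. Of the sterol pathway, they held Idi1 (-0.94), Fdps (-0.83), Msmo1 (-0.80), Cyp51 (-0.77), Insig1 (-0.72), Dhcr7 (-0.52), Srebf2 (-0.50), Lss (-0.49), Mvk (-0.49), Fdft1 (-0.48), Sc5d (-0.45), Hmgcs1 (-0.44), Sqle (-0.41) and Acss2 (-0.35). Of lipid carriers and transporters they held Fabp3 (-1.45), Ptgds (-0.70), Slc14a1 (-1.12) and Slc2a10 (-1.02). The other negative values were those of Clcf1 (-1.45), Ngfr (-1.44), Myof (-1.28), Efna5 (-0.83), Id2 (-0.69), Pcdhga5 (-0.58), Cdkn2a (-0.57) and Nqo1 (-0.53).

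The positive values were led by the secreted factors Slit3 (4.43), which passed the level only through tdTomato astrocytes, and Cxcl12 (3.66). Of positional genes they held Hoxa13 (1.50), Hoxa7 (0.28), Hoxb3 (0.76), Hoxb6 (0.72), Hoxb8 (0.78), Hoxb9 (0.60), Hoxc8 (0.64), Nkx6-1 (0.62), Pax6 (0.63), Tfap2a (0.58) and Foxc1 (0.52). Of matrix, guidance and adhesion genes they held Col6a3 (2.08), Col12a1 (0.79), Tnc (1.02), Fbln2 (0.72), Mmp14 (0.65), Ctsh (1.00), Plxna4 (0.69), Robo1 (0.56), Pcdhga10 (1.01), Pcdhga2 (1.14) and Pcdhgb6 (1.02). Of signalling genes they held Gli2 (1.62), Bmp2 (1.46), Bmp6 (1.33), Bmper (1.03), Bmpr1b (0.76), Id4 (0.89), Hes5 (1.44), Dusp6 (0.95), Spry1 (0.75), Fgf14 (0.51), Ednrb (0.99) and Bdkrb2 (1.32). Of astrocyte and lipid genes they held Slc1a2 (1.01), Aldh1l1 (0.62), Apoe (1.21), Abca9 (1.06), Abca8a (0.95) and Fads1 (0.29). Of oligodendrocyte lineage genes they held Olig1 (0.35) and Cspg4 (0.47). The other positive values were those of Irf7 (1.48), Egr2 (1.19), Iigp1 (0.81), Snai2 (1.23), Mical1 (0.90), Kcnma1 (0.75) and Cdkn1a (0.55). A positive value can be a smaller deficit, as in Hes5, which was lower in tdTomato in both fates.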

How the results depend on the processing

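The count of 1540 genes fell to 918 without a filter on low values, which tests 26819 genes, and 806 of the 918 were among the 1540. With each library left out in turn it ranged from 931 to 1512. In the other alternatives without a block it ranged from 1178 (no trend) to 2083 (all 18 libraries). The count of 279 genes with a difference of at least 1 fell to 121 with a filter of 100 on the linear scale, which tests 10741 genes, and was 190 to 315 otherwise. The count of 1713 genes whose line difference changed between fates stayed at 1181 to 1992, with 49.2% of the calls positive and 55.9% after median centring. The tdTomato and EYFP libraries share replicate numbers. The correlation of deviations between libraries of the same number was 0.349, 0.33 and 0.086. Between libraries of unlike numbers it ran from -0.383 to 0.12, the highest being tdTomato replicate 3 with EYFP replicate 2. What the numbers stand for is not given in the sources used here, so the main test did not pair them. Blocking on the replicate (the pairing by number), the counts were 2887, 304 and 1882, all 1540 genes stayed called, and no call of a named gene was lost. Genes not called in the main test can thus be called with the block. Of 149 genes named by the rule, 39 lost their call under at least 1 of the 16 alternatives and none changed direction. The filter of 100 left 47 of the 149 untested. Of the 102 that all alternatives tested, 80 kept their call throughout, and 30 of the 47 kept it in those that tested them. Of 43 other called genes in the text, 19 lost their call under at least 1 alternative and 17 when a library was left out. Leaving out chromosome 19 and distal chromosome 14, an alternative chosen after seeing the data, gave 1429. The depth of each library is unknown, so differences among weakly expressed genes that were not called cannot be told from shrinkage.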
